A study of Mus musculus with 16 samples.

Results

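The suppressor of cytokine signalling (SOCS) family was followed through RIP-seq data of mouse macrophages. Its 8 members are Socs1, Socs2, Socs3, Socs4, Socs5, Socs6, Socs7 and Cish. They were taken by gene symbol, with no threshold on a measured value, out of the 14925 genes with a counted 3′-UTR. The members had 14 of the 30622 counted 3′-UTR regions, and each gene was represented by its region with the most reads.

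Cytokine receptors signal through JAK kinases, which phosphorylate STAT transcription factors. STATs switch on SOCS genes, and the SOCS proteins then bind the receptor or the kinase through an SH2 domain and recruit a ubiquitin ligase through their SOCS box, which closes a negative feedback loop. SOCS1 and SOCS3 also block JAK activity directly. In macrophages SOCS1 is known for limiting interferon and Toll-like receptor responses, and SOCS3 for limiting signalling by IL-6 through its receptor chain gp130.

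The RIP-seq used an antibody against CPEB4, which binds RNA at cytoplasmic polyadenylation elements (CPEs), U-rich stretches of 3′-UTRs. Bone marrow-derived macrophages (BMDMs) came from C57BL/6J 129 mice and were grown in medium conditioned by L cells, which supply M-CSF. They were wild type (WT, numbered 76 in the labels) or CPEB4 knockout (KO, numbered 73). They were untreated or stimulated for 9 h with LPS at 10 ng/ml, and the immunoprecipitated RNA (RIP) and the lysate RNA (Input) were sequenced. The 16 samples are 8 libraries on 2 lanes each, so each genotype, treatment and assay had 1 library. There was therefore no replicate check, no test was made, and every interval below is a 95% interval for counting error only. It says nothing of the spread between cultures. The labels do not say what the numbers 76 and 73 stand for, and the genotype cannot be told apart from them. The cells came from the femoral marrow of adult mice, whose sex is not given in the sources used here.

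The first sequences shown are the CPE nearest the end of the counted Socs1 and Socs3 regions and the AU-rich stretches of Socs3 and Cish, because these are the members with the largest LPS changes. Bases were read from the RefSeq copy of GRCm38.p6, 5′ to 3′ on the strand of the gene, with the motif in capitals.
Socs1 CPE, chr16:10783860-10783885, minus strand: gaatatcctaTTTTATatttttacag
Socs3 CPE, chr11:117966081-117966105, minus strand: agcactattTTTTAATgaaaaaaaa
Socs3 AUUUA, chr11:117966135-117966159, minus strand: atatatttatATTTAtactcagaaa
Cish AUUUA, chr9:107301379-107301403, plus strand: tacagtatttATTTAtttattctcc

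A CPE was searched on the strand of the gene as the letters TTTTAT and as the forms written TTTTAAT and also TTTTAAAT and further as TTTTACT and then as TTTTCAT and likewise as TTTTAAGT and finally as TTTTGT, overlaps included. The 425-base Socs1 region held 1 CPE, at position 358 counted from the region's start, ahead of an AATAAA polyadenylation hexamer at position 385. It covers 21.4% of the 3′-UTR that GENCODE M21 gives the transcript, and the rest was not searched. A CPE was present in 58.3% of regions of like length, taken as 0.8 to 1.25 times the member's. The 1474-base Socs3 region held 3 CPEs and 4 copies of AUUUA, the core of AU-rich elements. Socs4, Socs6 and Socs5 held the most CPEs. Socs4 had 30 CPEs and 17 AUUUA in 5178 bases, Socs6 had 18 and 10 in 4019 bases, and Socs5 had 9 and 3 in 2339 bases. Of regions of like length, 7.04% held at least as many CPEs as Socs4, 17.3% as Socs6 and 32.0% as Socs5. Cish held no CPE in 2248 bases, where 96.0% of regions of like length held at least 1, and 3 overlapping AUUUA. Socs2 held 5 CPEs and 2 AUUUA in 1163 bases. The 30-base Socs7 region held neither motif. The CPE prediction that the deposited tables carry was empty for Socs1, Socs7 and Cish, was repression for Socs2, Socs4, Socs5 and Socs6, and was weak early activation for Socs3.

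**Figure D1:**
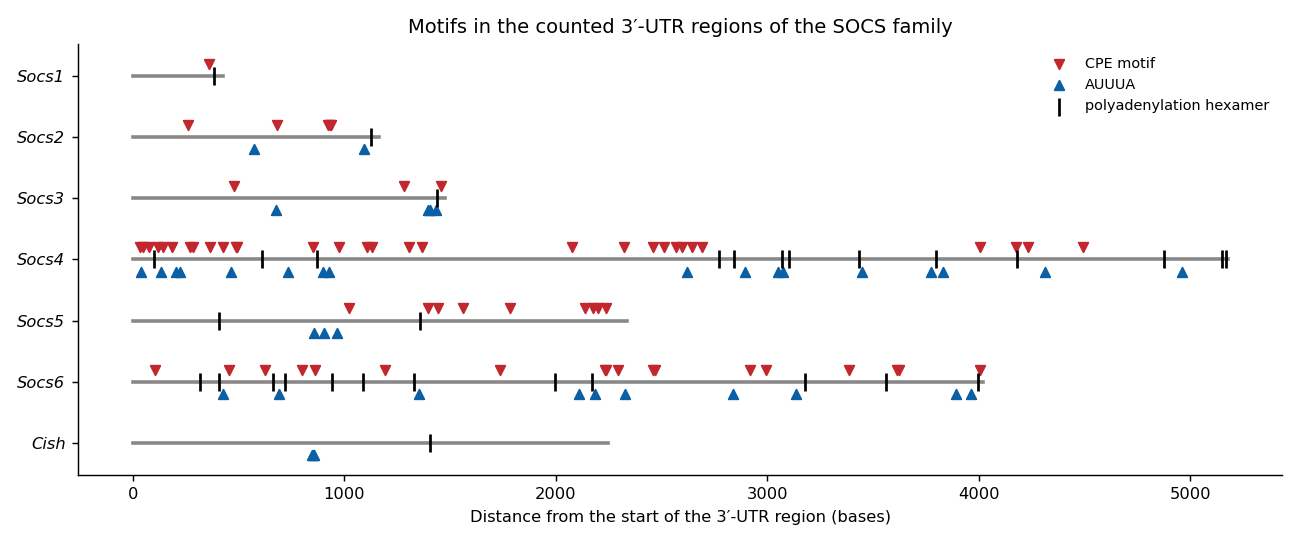
Motifs along the counted 3′-UTR region of 7 members, as distance in bases from the start of the region. Red triangles are CPE motifs, blue triangles are AUUUA and black ticks are AATAAA or ATTAAA hexamers, and Socs4 and Socs6 hold 30 and 18 CPEs where Socs1 holds 1 and Cish holds 0. The counted Socs1 region covers 21.4% of its annotated 3′-UTR.

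A RefSeq promoter sequence, from 250 bases before to 50 bases after the transcript start, was matched for 4 of the 8 members. The windows below come from the 3 genes among them with a STAT or interferon motif. These 3 were also raised by LPS in the WT Input, a result known when the windows were chosen. Socs4 was the only other member with a promoter sequence, so a link between motif and LPS change was not tested. Capitals mark TTCNNNGAA, the STAT-binding GAS motif, which reads the same on both strands, or the interferon-stimulated response element (ISRE), searched on both strands as GAAA followed by any 2 bases and again GAAA.
Socs1 ISRE, chr16:10785596-10785621, minus strand: cggaaagaGAAACCGAAAgcgggggt
Socs3 GAS, chr11:117969504-117969528, minus strand: aaccagccTTCTTAGAAgggagggg
Cish GAS, chr9:107296651-107296675, plus strand: gcccagttTTCCTGGAAagttcttg
Socs1 held 2 overlapping ISRE matches, against 3.44% of 32851 promoters with any. Socs3 held 1 GAS match and Cish 2, against 8.30% of promoters with any, and the Socs4 promoter held no match to either. A match describes the letters of the window and is not evidence of binding.

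The libraries held 467696 to 2492300 reads on 3′-UTRs. These were 27.3% and 31.8% of the library total in the untreated and LPS KO RIPs, and 46.4% to 70.1% in the other 6 libraries. WT over KO RIP ratios are therefore higher on library totals than on 3′-UTR totals for every gene, by 0.84 untreated and by 1.14 with LPS (log2), and which scaling holds was not tested. Levels are given in CPM, the reads of a gene for every 1000000 3′-UTR reads of its library, and log2 ratios on 3′-UTR totals, unless library totals are named. A gene was tested where the libraries compared held 10 reads or more, and was called higher or lower where the log2 ratio passed 1 and its interval left out 0. All 8 macrophage markers had reads in every library, with a summed level of 1764 to 4482 CPM, while Cd3e and Cd3d of T cells had no read in any Input. The RIPs did hold reads of these T cell genes, up to a sum of 6.41 CPM in the untreated KO RIP. Some Inputs held reads of B cell, fibroblast and dendritic cell markers, with dendritic cell markers at 1.08 CPM in the untreated WT Input. In such bulk samples fewer cells of a type and less RNA per cell cannot be told apart. The Cpeb4 3′-UTR was at 136 CPM in the WT and 52.6 CPM in the KO LPS Input, and a 3′-UTR that lies outside the deleted part of a gene would not check the label. With LPS it stood at 770 CPM in the WT RIP and 367 CPM in the KO RIP. Untreated, the WT and KO RIPs held 836 and 257 CPM and the Inputs 130 and 52.0 CPM. Cpeb4 was thus above Input in the KO RIPs too, and the reason was not tested.

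**Figure D2:**
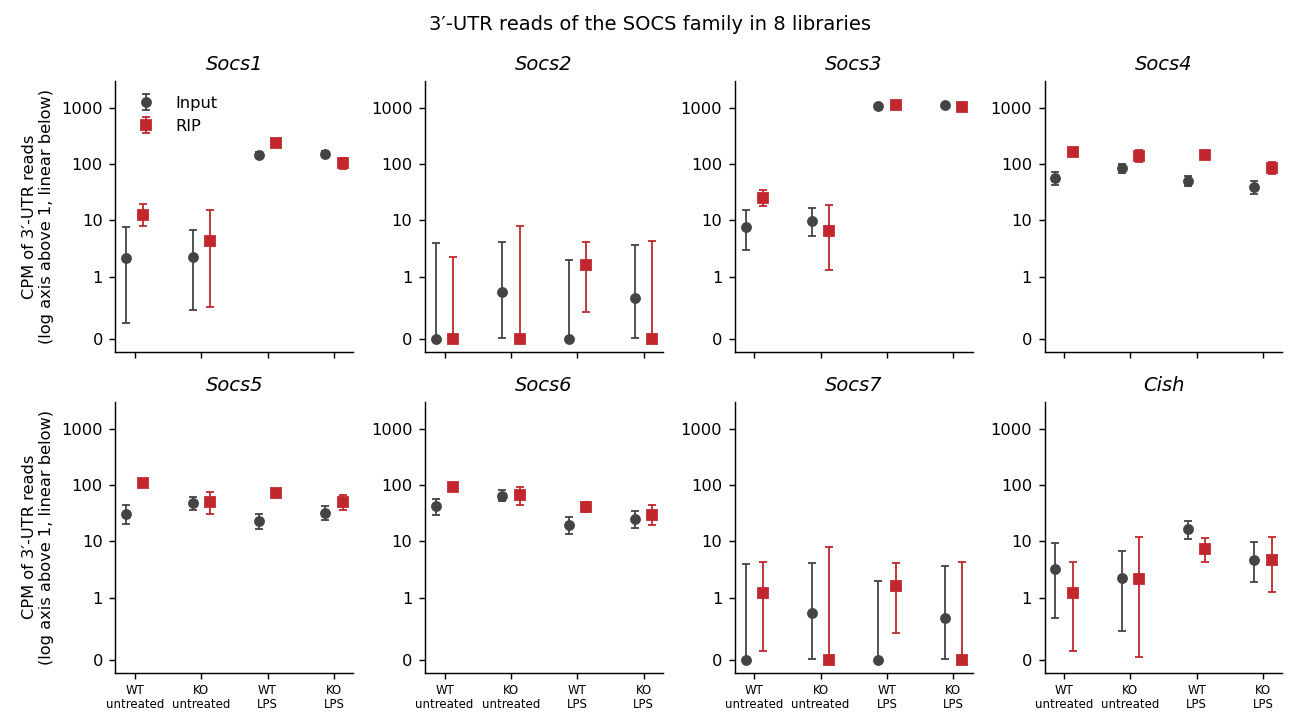
Level in CPM of the 3′-UTR reads of the 8 members in the 8 libraries, Input as circles and RIP as squares, with exact 95% counting intervals, on an axis that is logarithmic above 1 and linear below. Socs1 and Socs3 stand above 100 CPM in the LPS libraries and below 30 CPM in the untreated ones, while Socs2 and Socs7 stay at or below 1.60 CPM.

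The family was dominated by Socs3 and Socs1 after LPS. The members took 131 of the reads of the untreated WT Input and 2545 of those of the LPS WT Input, or 0.0141% and 0.134% of 3′-UTR reads. Socs3 made up 5.34% of the family's reads in the first and 80.8% in the second. In the KO Inputs it made up 4.61% and 81.8%. Per length, the LPS WT Input ran from Socs3 at 735 CPM per kilobase and Socs1 at 347 to Socs5 at 9.91, Socs4 at 9.87, Cish at 7.27 and Socs6 at 4.85. Socs3 and Socs1 were separated from each other and from the rest by intervals that did not overlap, while Socs5, Socs4 and Cish were not separated, nor were Cish and Socs6. The untreated WT Input had another order, with Socs5 at 12.9, Socs4 at 10.8 and Socs6 at 10.4 CPM per kilobase, which were not separated. Socs3 and Socs1 followed at 5.11 and 5.07, from 7 and 2 reads, and their intervals overlapped those of the first 3. The counted Socs1 region covers 21.4% of the 3′-UTR that GENCODE M21 gives the same transcript, and the Socs5 region 90.1%, so that levels per kilobase hold for the counted stretch.

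LPS raised Socs1 and Socs3 in both genotypes and Cish in the WT, and lowered Socs6 in both. Of the 6 members tested in the WT Input, 3 were called higher (Socs1, Socs3 and Cish) and 1 lower (Socs6), against 11.7% of 8163 genes called higher and 15.4% lower. Those 3 had 2, 7 and 3 untreated reads and reached the read minimum through the LPS Input. In the KO Input 2 of 6 were called higher (Socs1 and Socs3) and 2 lower (Socs4 and Socs6), against 12.1% and 18.5% of 8250 genes. The median of the members was 0.91 in the WT and 0.13 in the KO Input, beside -0.08 and -0.18 over all genes tested.

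Socs3 went from 7 to 2056 reads in the WT Input and from 13 to 1709 in the KO Input, or from 7.53 to 1084 and from 9.80 to 1138 CPM. The log2 LPS change was 6.98 (5.97 to 7.98) in the WT, against 6.75 (5.99 to 7.51) in the KO. These rank above 99.9% and 99.8% of the genes tested. After LPS the WT over KO Input fold was 0.953 (0.893 to 1.02).
Socs1, the inhibitor of interferon signalling, went from 2 to 280 reads in the WT Input and from 3 to 229 in the KO Input. The log2 change was 5.52 (3.88 to 7.16) and 5.67 (4.24 to 7.09), and both rest on 2 and 3 untreated reads. After LPS the WT and KO Inputs held 148 and 152 CPM, with a log2 ratio of -0.05 (-0.30 to 0.20).

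Cish, which is induced by STAT5, stood at 3 reads in each untreated Input. After LPS it had 31 reads in the WT Input and 7 in the KO Input, or 16.3 and 4.66 CPM. The log2 LPS change was 1.97 (0.47 to 3.47) in the WT, against 0.82 (-0.91 to 2.55) in the KO. The difference of those changes, 1.15, had an interval from -1.14 to 3.44. The counted Cish region overlaps the antisense gene Gm17041, and whether the counting used strand is not given in the sources used here.

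Socs4 and Socs5, which are known for promoting degradation of the EGF receptor, and Socs6, which binds the receptor KIT, moved less. Socs6 had 39 and 37 reads in the untreated and LPS WT Inputs and 86 and 37 in the KO Inputs. Its log2 change was -1.10 (-1.75 to -0.46) in the WT, against -1.38 (-1.92 to -0.83) in the KO, so it was called lower in both genotypes. Socs4 had 52 and 97 reads in the WT Inputs, a log2 change of -0.14 (-0.63 to 0.34) that was not called. In the KO Inputs it had 112 and 58 reads, a log2 change of -1.12 (-1.57 to -0.66) that was called lower and became -0.98 on library totals. The WT minus KO difference of the Socs4 changes was 0.97 (0.31 to 1.64), past 0 but short of 1. Socs5 changed by -0.40 (-1.07 to 0.28) in the WT, against -0.57 (-1.10 to -0.03) in the KO, and neither value was called. None of the 6 members tested was called for a WT minus KO difference of the Input LPS change, where 2.64% of 7867 genes were called higher and 1.44% lower.

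**Figure D3:**
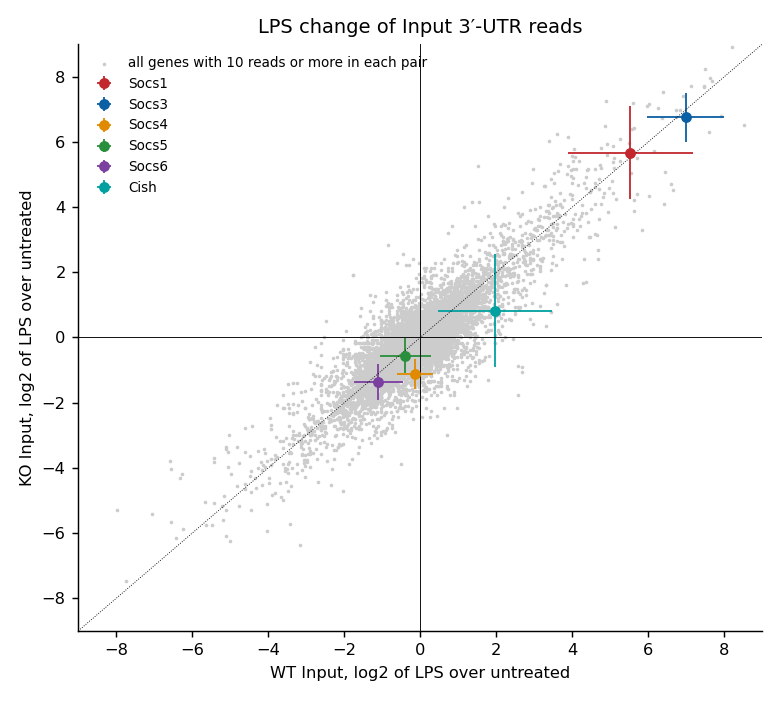
Log2 LPS change of Input 3′-UTR reads in the WT (horizontal axis) and the KO (vertical axis), with 6 members in colour with 95% counting intervals, the genes with 10 reads or more in each pair in grey, and a dotted line of equality. Socs3 and Socs1 lie at the upper right end of all genes close to the dotted line, and Socs4 lies below the line at -0.14 and -1.12.

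Socs2, which limits growth hormone signalling, and Socs7 had too few reads to be tested. Socs2 had 4 reads in the LPS WT RIP and 0 or 1 in each of the other libraries, and its count of 0 in the deepest Input allows up to 1.58 CPM when read as 3 reads, where the exact interval ends at 1.94 CPM. Socs7 had 4 reads in the LPS WT RIP, 2 in the untreated WT RIP and 0 or 1 elsewhere. Its counted region is a 30-base piece, and the annotation places a further 3′-UTR exon of 5154 bases downstream that was not counted for it here, so these reads cover a small piece of the transcript.

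All 5 members tested were recovered above Input with the antibody in untreated WT cells. These were Socs1 (log2 RIP over Input 2.03, from 2 Input and 21 RIP reads), Socs5 (1.83), Socs3 (1.58), Socs4 (1.55) and Socs6 (1.09), where 21.2% of 8359 genes were called higher and 19.8% lower. Their median was 1.58, beside 0.03 over all genes tested. Socs1 and Socs3, with 2 and 7 Input reads, reached the read minimum through the RIP. Cish, with 3 Input and 2 RIP reads, was not tested, so this count and median rest partly on the minimum. On library totals the same 5 were called, where 22.5% of genes were called higher and 18.4% lower.
Socs5 had 28 Input and 184 RIP reads, or 30.1 and 110 CPM, and Socs4 had 52 and 277, or 56.0 and 166 CPM. The Input and RIP intervals of these levels did not overlap.

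In untreated KO cells none of the 4 members tested was called, where 15.5% of 7708 genes were called higher and 7.75% lower. Socs4 reached 0.75 (0.31 to 1.19) with 112 Input and 66 RIP reads. Socs5 (0.09), Socs6 (0.06) and Socs3 (-0.30) had intervals that held 0. On library totals 4.83% of genes were called higher and 32.9% lower, and again no member was called.

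With LPS the members separated in the WT. Socs5 (log2 RIP over Input 1.63), Socs4 (1.47) and Socs6 (1.06) were called higher and Cish (-1.15) lower among 6 members tested, where 21.6% of 8767 genes were called higher and 25.4% lower. Socs1 was at 0.69 (0.48 to 0.89), from 148 CPM in the Input and 238 CPM in the RIP. Socs3 was at 0.07 (-0.01 to 0.15), from 1084 and 1139 CPM. On library totals Socs1 passed the threshold at 1.20, Cish no longer did at -0.63, and 33.7% of genes were called higher and 14.9% lower.
In the KO with LPS, Socs4 was called higher at 1.15 (0.66 to 1.64) from 58 Input and 75 RIP reads, and was the 1 member called of 6, where 15.1% of 7861 genes were called higher and 9.04% lower. On library totals Socs4 fell short at 0.47, and 4.86% of genes were called higher and 32.6% lower. Socs1 was at -0.55 (-0.90 to -0.20), from 152 CPM in the Input and 103 CPM in the RIP, and on library totals at -1.24, which was called lower. Socs1 was thus above Input in the WT and below Input in the KO on both scalings.

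**Figure D4:**
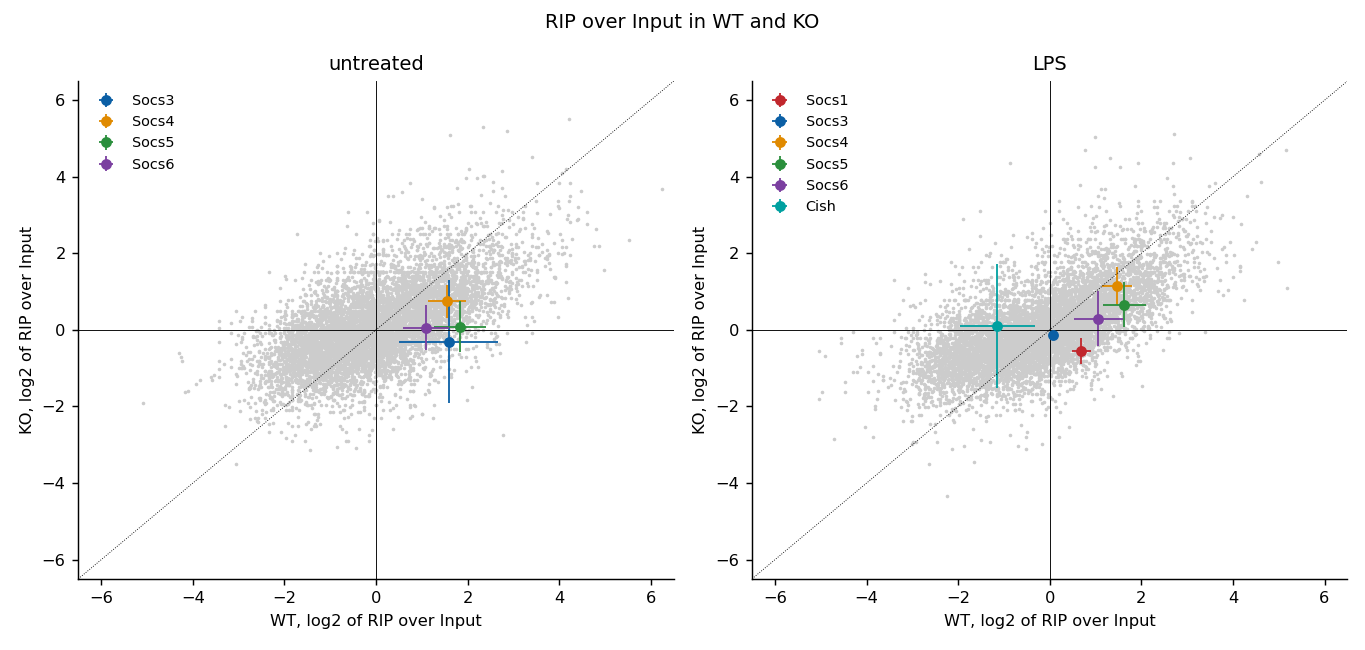
Log2 RIP over Input in the WT (horizontal axis) and the KO (vertical axis), untreated on the left and with LPS on the right, for the members with 10 reads or more in each pair (colour, 95% counting intervals) and all other such genes (grey), with a dotted line of equality. Every plotted member but Cish lies on the WT side of the line, and with LPS Socs1 lies at 0.69 in the WT and -0.55 in the KO.

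The direct comparison of the WT and KO RIPs separated Socs1 from Socs3 after LPS. Socs1 had 593 reads in the WT RIP and 90 in the KO RIP, or 238 and 103 CPM, a fold of 2.28. Its log2 ratio had an interval from 0.87 to 1.51, and it was the 1 member called higher among 6, where 7.11% of 8310 genes were called higher and 14.9% lower. Socs3 had 2839 and 905 reads, or 1139 and 1038 CPM, a fold of 1.10 (1.02 to 1.18). These reads lie on a region of 1474 bases, and the study's methods state that duplicate reads were removed. The 593 Socs1 reads lie on 425 bases. Whether that removal capped the Socs3 or Socs1 counts, more so in the deeper WT libraries, was not tested. Such a cap would lower their ratios, here and in the other comparisons with LPS.
Socs4 followed at 0.72 (0.36 to 1.07), Socs5 at 0.51 (0.04 to 0.98), Socs6 at 0.43 (-0.18 to 1.04) and Cish, from 18 and 4 reads, at 0.41 (-1.01 to 1.83). The median of the members was 0.47, beside -0.04 over all genes tested. On library totals 6 of 6 members were called higher, where 49.8% of genes were called higher and 1.14% lower.

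Scaling cancels when 2 members of the same libraries are set against each other. A cap on the reads of a region by duplicate removal would not cancel, and was not tested. The log2 WT over KO RIP ratio with LPS was higher for Socs1 than for Socs3 by 1.06 (0.72 to 1.39), than for Socs5 by 0.68 (0.11 to 1.25) and than for Socs6 by 0.76 (0.07 to 1.45). It was higher for Socs4 than for Socs3 by 0.58, since the difference of Socs3 minus Socs4 was -0.58 (-0.96 to -0.21). The other 11 of the 15 pairs had intervals that held 0.

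In untreated cells Socs3 and Socs5 were called higher in the WT RIP among 5 members tested, where 5.95% of 8064 genes were called higher and 11.5% lower. Socs5 had 184 and 23 reads, or 110 and 49.2 CPM, a log2 ratio of 1.11 (0.50 to 1.73). Socs3 rests on 42 and 3 reads, with an interval from 0.12 to 3.07. It reached the read minimum through the WT RIP, as did Socs1. Socs1 had 21 and 2 reads and a log2 ratio of 1.04 (-0.70 to 2.78), Socs6 was at 0.42 (-0.12 to 0.97) and Socs4 at 0.22 (-0.16 to 0.61). On library totals 5 of 5 were called higher, where 31.5% of genes were called higher and 0.942% lower. Setting members against each other, 1 of 10 pairs had an interval off 0, with Socs4 below Socs5 by a log2 difference of -0.89 (-1.62 to -0.17).
The 8 macrophage markers summed to 2164 and 1764 CPM in the untreated and LPS WT RIPs and to 4482 and 3107 CPM in the KO RIPs. Their median log2 WT over KO RIP ratio was -1.03 untreated and -1.08 with LPS, and their part in the members' ratios was not tested.

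Subtracting the log2 WT over KO Input ratio from that of the RIP gave an input-corrected ratio. Untreated, Socs5 at 1.74 (0.86 to 2.62) and Socs6 at 1.03 (0.26 to 1.80) were called higher of 4 members tested, where 9.47% of 7201 genes were called higher and 11.8% lower. Socs4 was at 0.80 (0.19 to 1.41) and Socs3 at 1.89 (-0.05 to 3.83). For Socs4, Socs5 and Socs6 the log2 WT over KO ratio of the untreated Input was itself -0.58, -0.63 and -0.61. The interval lay below 0 for Socs4 and Socs6 and held 0 for Socs5. Of these Inputs none was called, where 1.22% of 7845 genes were called higher and 1.82% lower.
With LPS, Socs1 was called at 1.24 (0.83 to 1.64) of 6 members tested, where 8.07% of 7575 genes were called higher and 15.7% lower. Socs5 was at 0.97 (0.22 to 1.72), Socs6 at 0.77 (-0.12 to 1.66), Socs4 at 0.32 (-0.27 to 0.91), Socs3 at 0.20 (0.06 to 0.34) and Cish at -1.25 (-3.06 to 0.55). Against each other, Socs1 stood above Socs3 by 1.04 (0.61 to 1.47) and above Socs4 by 0.92 (0.20 to 1.63), and 6 of 15 pairs had intervals off 0. On library totals 4 of 4 members were called higher untreated and 5 of 6 with LPS, where 32.7% and 46.5% of genes were called higher and 1.6% and 1.12% lower.

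**Figure D5:**
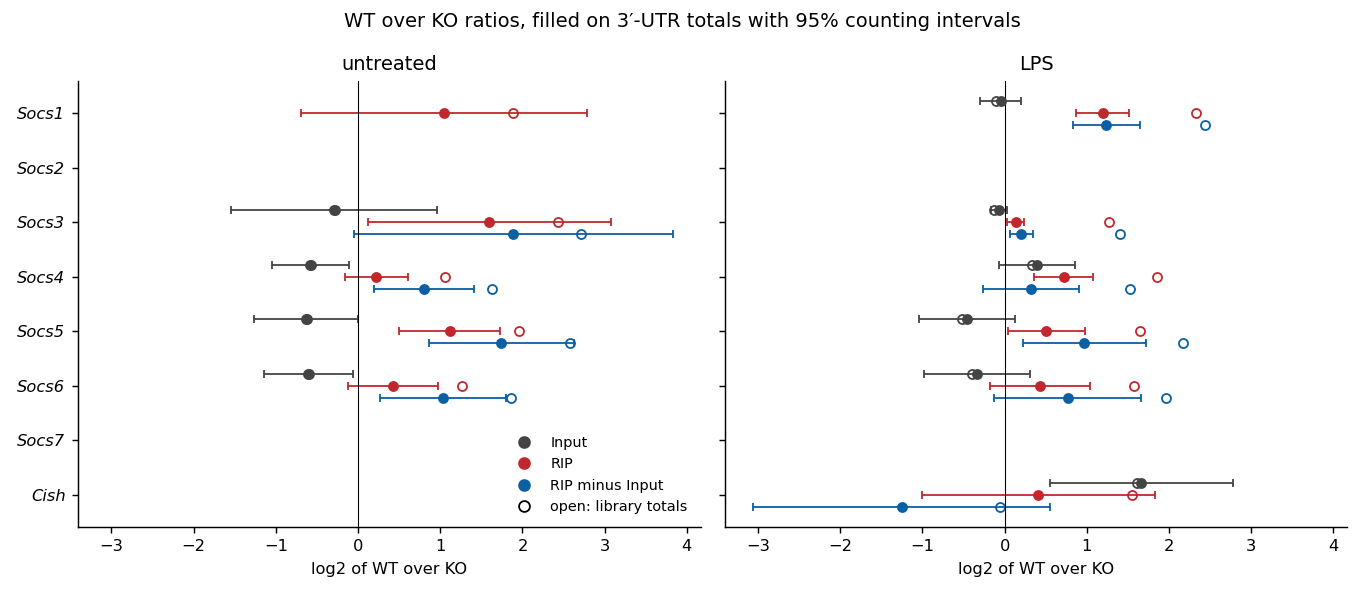
Log2 WT over KO ratio of each member in the Input (black), in the RIP (red) and in the RIP minus the Input (blue), untreated on the left and with LPS on the right. Filled points are on 3′-UTR totals with 95% counting intervals and open points are on library totals, and with LPS the Socs1 RIP sits at 1.19 while the Socs3 RIP sits at 0.13.

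Cish was the member called between the Inputs of the genotypes. With LPS its log2 WT over KO Input ratio was 1.66 (0.55 to 2.78), from 31 and 7 reads, and it was 1 of 6 members called, where 1.47% of 8151 genes were called higher and 1.5% lower. Cish reached the read minimum through the WT Input, and was not tested at a minimum of 50 reads. Its region overlaps the antisense gene Gm17041, with the use of strand in counting not given. The ratio ranked above 99.4% of the genes tested. On library totals it was at 1.61. Socs1, Socs3, Socs4, Socs5 and Socs6 had intervals that held 0.

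The LPS change within the RIPs had the same members at its ends. In the WT RIP Socs3 (log2 change 5.46), Socs1 (4.17) and Cish (2.08) were called higher and Socs6 (-1.14) lower of 6 tested, where 10.6% of 8901 genes were called higher and 19.7% lower. In the KO RIP Socs3 (6.93) and Socs1 (4.02) were called higher and Socs6 (-1.14) lower of 5 tested, where 11.0% of 7227 genes were called higher and 18.0% lower. Socs3 and Socs1 had 3 and 2 reads in the untreated KO RIP, and Cish had 2 in the untreated WT RIP. These values reached the read minimum through the LPS RIP, and their size depends on the read added. On library totals Socs6 was no longer called in either RIP (-0.62 and -0.92), 20.5% and 14.8% of genes were called higher and 10.0% and 13.3% lower.
Of 5 members tested none was called for the LPS minus untreated difference of the WT over KO RIP ratio, where 2.18% of 7463 genes were called higher and 2.4% lower. Socs3 had the difference farthest from 0, -1.46 (-2.94 to 0.02).

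The authors' peak scores, from MACS peaks called in a RIP against its Input, were above 0 for 3 members. In the LPS WT RIP they were 248 for Socs1, 223 for Socs5 and 98.7 for Socs4, and in the untreated WT RIP 199 for Socs5. No member had a peak in either KO RIP, whose 3′-UTR depth was lower. Socs3, Socs6 and Cish had no peak in any library.

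The genes around the family were described by lists for the same pathway. LPS gave 11.7% of all genes tested a higher call and 15.4% a lower call in the WT Input, and 12.1% and 18.5% in the KO Input. Of 10 JAK kinases and STATs tested, LPS raised 6 in the WT Input, among them Jak2 (3.42), Stat2 (1.85) and Stat3 (1.70), and 5 in the KO Input. None was called lower in either. Of 9 ligands tested in the WT Input 5 were called higher, led by Il12b (7.58, 4.75 to 10.4) and Csf3 (5.70, 2.86 to 8.54). The size of these changes depends on the read added to the untreated Input, and both genes reached the read minimum through the LPS Input. In the KO Input 5 of 6 were called higher. Osm and Il27 in the WT, and Il10, Il12b, Il27 and Csf3 in the KO, also had fewer than 10 untreated reads. They too reached the read minimum through the LPS Input.
Among 16 cytokine receptor chains, 6 were called higher and 4 lower in the WT Input. The largest of these were Lifr (-3.09), Il6st, which encodes the gp130 chain on which SOCS3 acts (-2.14), Il4ra (1.70) and Il6ra (-1.66). In the KO Input 7 were called higher and 4 lower, with Il6st at -2.48. Of 10 other inhibitors, Ptpn1 (1.59) and Ptpn6 (1.39) were called higher and Dusp3 (-1.40) and Pias1 (-1.15) lower in the WT, and 1 higher and 3 lower in the KO. Of the SOCS-box ligase partners, 2 of 5 tested were called higher in the WT Input (Rbx1 and Tceb2), and in the KO 1 of 6 higher (Tceb2) and 1 lower (Cul5, the cullin of the ligase, at -1.14, a call that was lost on library totals). Of 8 STAT target genes, 4 were called higher and 1 lower in each genotype.

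In the WT over KO RIP comparison with LPS, where 7.11% of all genes tested were called higher and 14.9% lower, the list with the highest median of the 6 was the ligands, at 0.88 over 10 tested. Osm (2.26), Csf3 (1.81), Il12b (1.60) and Il6 (1.31) were called higher and Ebi3 (-1.26) lower. Il12b and Csf3 were also called higher in the WT Input with LPS (1.80 and 1.81), and so was Lif (2.36), 3 of 9 ligands, where 1.47% of genes were called higher and 1.5% lower. After input correction the median of 9 ligands was -0.000219, none was called higher and Ebi3 (-1.10) was called lower, where 8.07% of genes were called higher and 15.7% lower. On library totals 3 of these 9 were called higher and none lower, where 46.5% of genes were called higher and 1.12% lower. Their median was then 1.20, beside 1.09 over all genes tested. Between the RIPs on 3′-UTR totals, the 10 JAK kinases and STATs had a median of -0.22, with Jak3 called lower (-2.62). Of the 15 receptor chains tested, Ifngr1 was called higher (1.65) and Il4ra (-1.72) and Csf2rb (-1.01) lower. Tceb1, which encodes Elongin C, the protein that binds the SOCS box, was called higher (1.16), 1 of 6 ligase partners, and in the Input with LPS it was called lower (-2.04). Of 11 other inhibitors Ptpn6 was called lower (-1.43), and none of 9 STAT targets was called. On library totals Ebi3, Il4ra, Csf2rb and Ptpn6 were not called lower and Jak3 was. The higher calls grew to 7 of 10 ligands, 5 of 10 JAK kinases and STATs, 8 of 15 receptor chains, 7 of 11 other inhibitors, 4 of 6 ligase partners and 6 of 9 STAT targets (Bcl3, Ccnd1, Irf1 and Junb, between Myc at 2.21 and Pim1 at 1.35), where 49.8% of all genes tested were called higher.
Untreated, where 5.95% of all genes tested were called higher and 11.5% lower, 3 of 9 STAT targets were called higher in the WT RIP (Bcl3 at 1.87, Myc at 1.81 and Pim1 at 1.46) and Icam1 lower (-1.68, not called on library totals). Ifngr1 (1.55), Jak2 (1.20), Tceb1 (1.22) and Pias4 (1.12), an inhibitor of STATs, were also called higher there. Lower calls there were Csf2ra (-1.06) and Csf2rb (-1.03) among 16 receptor chains, Ebi3 (-1.48) among 4 ligands, and Pias3 (-1.39) and Ptpn6 (-1.35) among 11 other inhibitors. None of these 5 was called lower on library totals.

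The genes most alike each member over the 8 libraries were found by Pearson's r of log2(CPM + 1) among 6667 genes with 100 reads or more, as a description. The libraries share a treatment and scaling, so that any gene with the same LPS change scores high. For Socs1 they were Ero1l (0.994), Ifnar2 (0.993) and Mapkbp1 (0.987), and for Socs3 they were Slco3a1 (0.995), Cd274 (0.995) and Spata13 (0.994). Socs4 was most like Btg1 (0.993), Eif4g3 (0.987) and Cul5 (0.986). Socs5 was most like Manea (0.978), Sypl (0.973) and Isg20l2 (0.970), and Socs6 was most like Mtmr12 (0.991), Trp53inp1 (0.989) and Ywhah (0.985). The other members had fewer than 100 reads.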

How the data were processed

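Per the labels, the authors aligned reads to mm10 with Bowtie2 2.2.2 and called peaks with MACS 1.4.2. According to the study's methods they removed duplicates and counted reads over Ensembl 3′-UTRs. The deposited tables hold read counts per 3′-UTR and library, with the lanes summed, RPKM, and the authors' score, the highest MACS peak score over the region. The counts were the same in all 4 tables. The deposited RPKM was used here to recover library totals. The authors' fold changes and p-values are also in the tables and were not used.

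Counts were scaled to the sum over rows with a symbol. Rows without a symbol held 0.902% to 1.04% of reads and were left out. One read was added to each library before log2 ratios were taken, with normal 95% intervals from the counts. The code was tested on simulated data. The members and gene lists were chosen with earlier results of these data known, and the comparison of pairs of members was chosen after seeing the data. Named list genes are the called ones, the largest ratio first and at most 4 a list, and 1 gene so chosen is not reported here. Alternatives were library totals, TMM (edgeR 4.0.16) and median-of-ratios (DESeq2 1.42.0) scaling, 0.1 reads added, no minimum or 50 reads, the longest region, a log2 threshold of 0.5, and the fold alone. Promoters came from RefSeq (GRCm38.p6), and for Socs2, Socs5, Socs6 and Socs7 none was matched.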

Additional observations from a re-analysis of the deposited data

Results flagged for a closer look

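Socs1 after LPS was above its Input in the WT RIP and below its Input in the KO RIP, with intervals that left out 0 in opposite directions. The difference of these log2 ratios is the input-corrected WT over KO ratio, 1.24 (0.83 to 1.64). With 1 library for each, the difference was not tested against the spread between cultures. It was 2.44 on library totals.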

How the results depend on the processing

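No paired analysis was possible because each genotype, treatment and assay had 1 library, and for the same reason no replicate could be left out. None of the called member values changed sign under the other scalings, 0.1 reads added, a minimum of 50 reads or the longest region. Of 498 member values computed under these, 460 stayed inside the 95% interval of the value reported, and 30 of the 38 outside it were on library totals.

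On library totals the members called numbered 5 (against 2) for the WT over KO RIP ratio untreated and 6 (against 1) with LPS, and 4 (against 2) and 5 (against 1) for the input-corrected ratio. Over all genes the WT over KO RIP calls went from 1407 to 2614 untreated and from 1830 to 4233 with LPS. For the input-corrected ratio with LPS, TMM called 3 members (Socs1, Socs5 and Socs6) and median-of-ratios scaling called 2 (Socs1 and Socs5). A minimum of 50 reads removed members with few reads, leaving 1 of the 2 calls between the untreated RIPs, 3 of the 5 for untreated WT RIP over Input and 0 of the 1 between the LPS Inputs. With a threshold of 0.5 the members called became 3 (against 1) for the WT over KO RIP ratio with LPS, 1 (against 0) and 3 (against 1) for KO RIP over Input untreated and with LPS, 2 (against 0) between the untreated Inputs, 2 (against 1) for the input-corrected ratio with LPS and 1 (against 0) for the WT minus KO difference of the Input LPS change. Without the interval, 2 members passed for the input-corrected ratio with LPS, 1 for the WT minus KO difference of the Input LPS change and 1 for the LPS minus untreated difference of the WT over KO RIP ratio. Adding 0.1 reads also called 1 member (Socs3) for the last. Smaller proportional changes in the number called are left out of these lists. Among them, without the interval Socs1 also passed for the untreated WT over KO RIP ratio. Socs3 did so for the untreated input-corrected ratio.

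Depth limits the untreated Socs1, Socs3 and Cish values, which rest on 1 to 42 reads a library.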
